A study of Mus musculus with 20 samples.

Results

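The 7 genes of the INK4 and CIP/KIP families, which encode inhibitors of cyclin-dependent kinases (CDKs), were followed across mouse T cells, some of them deleted for the E protein inhibitors Id2 and Id3, and across lymphomas labelled with both deletions. The members were found in the table by gene symbol. They are *Cdkn2a*, *Cdkn2b*, *Cdkn2c* and *Cdkn2d* of the INK4 family and *Cdkn1a*, *Cdkn1b* and *Cdkn1c* of the CIP/KIP family. All 7 had a row among the 39179 genes of the authors' deposited table, and all 7 were among the 15536 genes kept because at least 1 group averaged 10 normalized counts or more.

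RNA sequencing covered 20 samples in 5 groups, all on the C57BL/6 background. Single-positive CD4 thymocytes (CD4SP cells), sorted as CD4+TCRb+CD8- at 8 wk of age, came from 5 control, 3 *Id3*-/- and 3 *Id2*-/-*Id3*-/- samples. The labels call the controls wild type, whereas the paper names them *Id3*+/- in one place and littermate controls in another. In the *Id2*-/-*Id3*-/- thymocytes the study describes floxed alleles of both genes deleted by Cre from the *Il7r* locus, which is active from lymphoid progenitors onward. Follicular helper T (TFH) cells came from 3 wild-type spleens, sorted as CD4+TCRb+CD44highCXCR5+ after immunization with sheep red blood cells. The 6 *Id2*-/-*Id3*-/- lymphomas were sorted as CD3+TCRb+ cells, 4 of them CD4+ and 2 of them CD8+, from lymph node in 4 cases and from thymus and spleen in 1 each. The sources used here do not give the ages of the TFH and lymphoma mice or the Cre line behind each sequenced lymphoma.

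The table holds 1 average per gene and group, in RSEM counts that the authors normalized with DESeq, and the values printed here are those averages. No value per library was used, so an average has no error, no difference was tested, and a group whose average rests on 1 library cannot be told from one in which all libraries shared it. A difference is given as the log2 ratio of 2 averages after 1 normalized count was added to each. A gene is called higher or lower when that ratio passed 2-fold, and each count of members is set beside the share of the 15536 kept genes that passed it. The 4 comparisons with control CD4SP cells share the same control average. In sorted bulk RNA a smaller number of expressing cells and less RNA per cell cannot be told apart.

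The targeted genes checked the labels first. *Id2* averaged 2293 normalized counts in control CD4SP cells, 1628 in TFH cells, 1764 in the CD4SP libraries labelled *Id3*-/-, 6.82 in *Id2*-/-*Id3*-/- CD4SP cells and 30.5 in the lymphomas. *Id3* averaged 1991, 1777, 2650, 880 and 857 in the same order. The libraries labelled *Id3*-/- thus did not have less *Id3* RNA than control cells, and they are called by their label throughout. In both groups labelled *Id2*-/-*Id3*-/- *Id3* was lower than in control cells but still measured. A whole-gene value does not show which part of the gene the reads came from. Of the 6 CD4 T cell markers, which were all detected, *Cd4* ran from 4110 normalized counts in the lymphomas to 20145 in TFH cells. Lower than in control cells were 3 of the 6 in the lymphomas (*Cd4*, *Trbc1* and *Zbtb7b*). In *Id2*-/-*Id3*-/- CD4SP cells 2 were lower (*Cd4* and *Zbtb7b*), in TFH cells 1 (*Zbtb7b*), and 0 were higher in these groups. Of the 2 CD8 T cell markers, *Cd8a* averaged 1388 in the lymphomas against 128 in control cells and *Cd8b1* averaged 461 against 588. In the labels 2 of the 6 lymphomas were sorted as CD8+. Of 5 TFH markers 4 were higher in TFH cells than in control cells, with *Cxcr5* at 9568 against 44.6. Of 8 B cell markers 6 were higher in TFH cells than in control cells, with a summed average of 1962 against 122 normalized counts. The defining marker *Ms4a1* averaged 82.0 there against 6.72. Of 6 kept myeloid markers 3 were also higher in TFH cells and *Itgam* was lower, with a sum over the list of 191 against 140. Of 4 kept NK or gamma-delta T cell markers *Nkg7* and *Klrb1c* were higher and *Tcrg-C1* lower, with a sum of 930 against 327. In the lymphomas 4 of 6 kept myeloid markers and 3 of 3 kept erythroid markers were higher, with sums over the whole lists of 592 against 140 and of 215 against 29.5. Of 4 kept markers of fibroblasts, epithelium or endothelium 2 were higher in the lymphomas, *Epcam* at 3797 against 70.7 and *Col1a1* at 1663 against 24.7, and *Cdh5* was lower, with a sum over the list of 7157 against 1987. Their *Col1a2*, *Col3a1*, *Krt5* and *Krt8* averaged under 10. Of 8 B cell markers 3 were higher in the lymphomas, *Blk* (802), *Cd79b* (455) and *Cd22* (45.5), and *Ebf1* was lower, at 6.12 against 19.5. The list summed to 1372 against 122, with *Ms4a1* at 5.82. Of 4 kept NK or gamma-delta T cell markers *Klrd1* was higher in the lymphomas, at 167 against 45.2. *Nkg7* was lower, at 78.1 against 160, and the sum over that list was 355 against 327. The erythroid sum was 128 in the libraries labelled *Id3*-/-. Beside these marker counts, 11.8% of all kept genes were higher and 9.8% lower in TFH cells than in control cells. The shares were 14.1% and 10.1% in *Id2*-/-*Id3*-/- CD4SP cells and 18.2% and 17.2% in the lymphomas.

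CDK inhibitors set how readily a cell leaves the first gap phase for DNA replication. INK4 proteins bind CDK4 and CDK6 and keep D-type cyclins from activating them, so that the retinoblastoma proteins go on holding E2F factors in check. CIP/KIP proteins bind cyclin-CDK complexes more broadly, above all those of CDK2. *Cdkn2a* is unusual in that it encodes 2 unrelated proteins from separate first exons, the kinase inhibitor INK4A and the protein ARF, which binds MDM2 and so stabilizes p53. Loss of this locus is frequent in T cell leukaemia, and *Cdkn1b* and *Cdkn2c* are known as brakes on the division of developing thymocytes.

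*Cdkn2a* lies on mouse chromosome 4 from 89274471 to 89294653 of mm10, on the minus strand, and *Cdkn2b* is next to it from 89306299 to 89311039, 11.6 kb away. The GENCODE M21 annotation gives *Cdkn2a* 2 transcripts that start 12.5 kb apart and share 575 exon bases, 67.5% of the INK4A transcript and 64.3% of the ARF transcript. The deposited value covers the whole gene and cannot be divided between them. From reads along the locus, the paper reports higher ARF but not INK4A RNA in *Id2*-/-*Id3*-/- thymocytes, and almost no ARF RNA in lymphomas. The sequences just upstream of both starts are shown because the largest difference in the family belongs to this gene. They are followed by those of *Cdkn1a* and *Cdkn1b*, the CIP/KIP genes that stood highest and lowest against control in the lymphomas. All are RefSeq promoter sequences of GRCm38.p6, 5′ to 3′, without exon bases of the annotation. Capitals mark matches to an E2F motif (TTTGGCGC, TTTCCCGC, TTTGCCGC or TTTCGCGC), an E-box (CANNTG), the motif that E proteins bind, or a FOXO motif (TGTTTAC), searched on both strands.
Cdkn2a, ARF start, chr4:89294654-89294869, minus strand: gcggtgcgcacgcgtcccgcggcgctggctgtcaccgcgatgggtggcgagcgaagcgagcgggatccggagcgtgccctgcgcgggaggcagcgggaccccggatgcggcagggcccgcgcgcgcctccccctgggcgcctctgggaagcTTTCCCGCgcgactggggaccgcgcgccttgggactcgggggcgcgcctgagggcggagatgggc
Cdkn2a, INK4A start, chr4:89282193-89282442, minus strand: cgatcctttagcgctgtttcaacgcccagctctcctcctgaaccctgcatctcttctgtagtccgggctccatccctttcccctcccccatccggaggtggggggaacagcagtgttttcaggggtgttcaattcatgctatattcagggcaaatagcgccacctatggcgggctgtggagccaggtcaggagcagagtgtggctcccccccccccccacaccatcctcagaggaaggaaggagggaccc
Cdkn1a, second RefSeq start, chr17:29093519-29093768, plus strand: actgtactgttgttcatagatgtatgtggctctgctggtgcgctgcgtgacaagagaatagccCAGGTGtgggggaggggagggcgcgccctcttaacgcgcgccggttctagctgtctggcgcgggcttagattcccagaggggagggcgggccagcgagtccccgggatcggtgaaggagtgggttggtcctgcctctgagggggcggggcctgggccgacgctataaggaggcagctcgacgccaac
Cdkn1b, chr6:134920151-134920400, plus strand: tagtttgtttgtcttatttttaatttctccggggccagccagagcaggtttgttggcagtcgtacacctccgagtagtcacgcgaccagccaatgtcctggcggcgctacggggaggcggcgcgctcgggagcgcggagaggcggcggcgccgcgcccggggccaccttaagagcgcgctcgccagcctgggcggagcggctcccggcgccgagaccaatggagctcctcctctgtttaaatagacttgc

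The ARF start held the only E2F match among 9 upstream windows of 250 bases, which cover 6 members. It is TTTCCCGC, 99 bases before the RefSeq start, and 1.86% of 32817 mouse promoter windows held any of the 4 E2F forms. The window is also rich in G and C, at 78.4% against 60.0% at the INK4A start. An E-box was found in 2 of the 9 windows. At -187 of the second *Cdkn1a* start it reads CAGGTG, the reverse complement of CACCTG, and at -37 of *Cdkn2b* it reads CAAGTG. Of all promoter windows 66.2% held an E-box. No FOXO match was found in the 9 windows, against 3.16% of all promoters. These matches describe letters in short windows. The windows lie before RefSeq starts, and some overlap annotated exons. Of 250 bases, 250 were exonic in a window of *Cdkn2c* and 198 in that of *Cdkn2d*. A lack of matches there says little about sequence upstream of those genes. *Cdkn1c* was not searched.

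**Figure D1:**
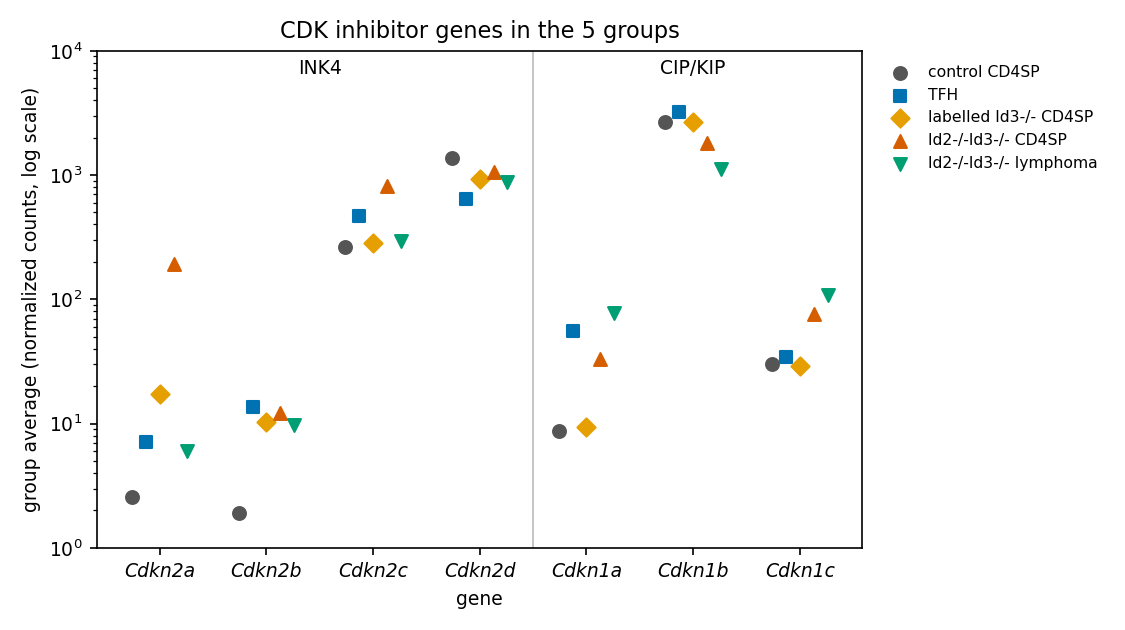
Group averages (normalized counts, log axis) of the 4 INK4 genes (left of the line) and 3 CIP/KIP genes (right) in control CD4SP cells, TFH cells, CD4SP cells labelled Id3-/-, Id2-/-Id3-/- CD4SP cells and Id2-/-Id3-/- lymphomas. Each point is 1 average with no error. The Id2-/-Id3-/- CD4SP point of Cdkn2a, at 192, stands apart from the other 4, which lie between 2.57 and 17.3.

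Among the INK4 genes, *Cdkn2a* was low in control CD4SP cells, at 2.57 normalized counts, and averaged 192 in *Id2*-/-*Id3*-/- CD4SP cells. The average was 7.10 for TFH cells, 17.3 for the libraries labelled *Id3*-/- and 6.01 for the lymphomas. The premalignant *Id2*-/-*Id3*-/- thymocytes were thus the only group with an average over 100, and the *Id2*-/-*Id3*-/- lymphomas had a level close to that of TFH cells. The log2 ratio of *Id2*-/-*Id3*-/- to control cells was 5.76, the 43rd highest among the kept genes, and the ratio of the plain averages was 74.7. Between lymphomas and *Id2*-/-*Id3*-/- CD4SP cells the log2 ratio was -4.78, the 84th lowest, and the plain average was 31.9-fold lower. The libraries labelled *Id3*-/- had a log2 ratio to control of 2.36, TFH cells one of 1.18 and the lymphomas one of 0.97, all on low counts. Markers of other cells also differed between *Id2*-/-*Id3*-/- CD4SP and control cells. In this comparison 14.1% of all kept genes were higher and 10.1% lower. Higher were 1 of 8 B cell markers (*Blk*), 2 of 6 kept myeloid markers (*Itgam* and *Fcgr3*), 2 of 4 kept markers of fibroblasts, epithelium or endothelium (*Col1a1* and *Epcam*) and 1 of 4 kept NK or gamma-delta T cell markers (*Tcrg-C1*, 519 against 48.2). The summed averages of these lists were 194 against 122, 248 against 140, 2514 against 1987 and 677 against 327 normalized counts. In the third of these lists *Cdh5* was lower, at 3.28 against 15.8, and *Col1a2*, *Col3a1*, *Krt5* and *Krt8* were under 10 in both groups. *Ms4a1* averaged 9.13 against 6.72, and the erythroid sum was 14.3 against 29.5. The part of these cells in the level of *Cdkn2a* was not tested.

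*Cdkn2b*, whose INK4B protein is induced by TGF-beta in many cells, averaged 1.90 normalized counts in control cells. It averaged 13.7 in TFH cells, 10.2 in the libraries labelled *Id3*-/-, 12.1 in *Id2*-/-*Id3*-/- CD4SP cells and 9.72 in the lymphomas. The 4 groups other than control stood close together, with log2 ratios to control from 1.88 to 2.34. Despite the 11.6 kb between them, the neighbours differed in pattern. *Cdkn2a* was 31.9-fold lower in the lymphomas than in *Id2*-/-*Id3*-/- CD4SP cells, where the log2 ratio of *Cdkn2b* was -0.29. Their transcripts shared 0 stretches of 30 bases, and neither did any other pair of the 7 genes, so reads of that length or longer match 1 member at a time.

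Genes farther along the same chromosome did not follow *Cdkn2a*. *Mtap*, which encodes an enzyme of methionine salvage and lies 93.4 kb from it, averaged 784 normalized counts in control cells, 701 in *Id2*-/-*Id3*-/- CD4SP cells and 971 in the lymphomas. *Klhl9*, an adaptor of a ubiquitin ligase, averaged 1203, 1089 and 753. *Dmrta1*, a DM-domain gene 368.4 kb beyond *Cdkn2b*, averaged 13.4, 8.17 and 10.3. None of these 3 kept neighbours passed 2-fold between *Id2*-/-*Id3*-/- CD4SP and control cells, and none between lymphomas and control cells. Of all kept genes 24.2% and 35.4% passed it in these comparisons, so most kept genes did not pass it either. *Dmrta1* averaged 48.0 in the libraries labelled *Id3*-/-, a log2 ratio of 1.77.

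*Cdkn2c*, on chromosome 4 from 109660876 to 109667189, encodes INK4C. It averaged 263 normalized counts in control cells, 468 in TFH cells, 284 in the libraries labelled *Id3*-/-, 814 in *Id2*-/-*Id3*-/- CD4SP cells and 294 in the lymphomas. Like *Cdkn2a* it was highest in the *Id2*-/-*Id3*-/- thymocytes, where the log2 ratio to control was 1.63, and lower in the lymphomas than in those cells, at -1.47. Its average in the lymphomas lay next to that of control cells, with a log2 ratio of 0.16 that turned to -0.04 when the averages were scaled to the same sum. In TFH cells the ratio was 0.83, short of 2-fold.

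*Cdkn2d*, on chromosome 9 from 21288410 to 21291407, encodes INK4D. It was highest in control cells, at 1367 normalized counts, and averaged 647 in TFH cells, 922 in the libraries labelled *Id3*-/-, 1065 in *Id2*-/-*Id3*-/- CD4SP cells and 884 in the lymphomas. All 4 log2 ratios to control were below 0, from -1.08 in TFH cells to -0.36 in *Id2*-/-*Id3*-/- CD4SP cells. Only that of TFH cells passed 2-fold. It was the 1 INK4 gene that was not higher than control in *Id2*-/-*Id3*-/- thymocytes.

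Among the CIP/KIP genes, *Cdkn1a* (chromosome 17 from 29090976 to 29100727) encodes p21, the classical CDK inhibitor induced by p53. It averaged 8.66 normalized counts in control cells, 55.6 in TFH cells, 9.41 in the libraries labelled *Id3*-/-, 33.1 in *Id2*-/-*Id3*-/- CD4SP cells and 78.0 in the lymphomas. Control cells and the libraries labelled *Id3*-/- were both under 10, and the other 3 groups were at 33.1 or more. The log2 ratio to control was 2.55 in TFH cells, 1.82 in *Id2*-/-*Id3*-/- CD4SP cells and 3.03 in the lymphomas. *Cdkn1a* was the only member that was higher past 2-fold in the lymphomas than in *Id2*-/-*Id3*-/- CD4SP cells, at 1.21. Some B cell, myeloid and NK or gamma-delta T cell markers were also higher in TFH cells than in control cells. In the lymphomas this held for myeloid and erythroid markers, *Epcam*, *Col1a1*, *Blk*, *Cd79b*, *Cd22* and *Klrd1*. These markers did not follow *Cdkn1a* in every group. The erythroid sum was 128 in the libraries labelled *Id3*-/- against 29.5 in control cells. The part of these markers' cells in the level of *Cdkn1a* was not tested.

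*Cdkn1b*, on chromosome 6 from 134920401 to 134925513, encodes p27, the inhibitor that resting T cells hold at high levels. It averaged 2682 normalized counts in control cells, 3207 in TFH cells, 2660 in the libraries labelled *Id3*-/-, 1798 in *Id2*-/-*Id3*-/- CD4SP cells and 1127 in the lymphomas. It was the only member that was lower past 2-fold in the lymphomas than in control cells, with a log2 ratio of -1.25. The *Id2*-/-*Id3*-/- thymocytes lay between control cells and lymphomas, at -0.58 against control. The libraries labelled *Id3*-/- differed from control by -0.01.

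*Cdkn1c*, on chromosome 7 from 143458339 to 143461050, encodes p57 and is imprinted, with expression mainly from the maternal allele. It averaged 30.2 normalized counts in control cells, 34.0 in TFH cells, 28.9 in the libraries labelled *Id3*-/-, 76.4 in *Id2*-/-*Id3*-/- CD4SP cells and 108.7 in the lymphomas. Both groups labelled *Id2*-/-*Id3*-/- stood above the other 3, with log2 ratios to control of 1.31 and 1.82. The same 2 groups had the lowest averages of *Cdkn1b*. Of the neighbours of *Cdkn1c* in its imprinted domain, *Kcnq1*, a potassium channel gene 31.3 kb away, averaged 2.06 in control cells, 3.60 in TFH cells, 4.85 in the libraries labelled *Id3*-/-, 155 in *Id2*-/-*Id3*-/- CD4SP cells and 124 in the lymphomas. It was thus also higher in both groups, with log2 ratios of 5.67 and 5.36. *Nap1l4*, a histone chaperone gene 52.5 kb away, averaged 3545 in control cells and had ratios of -0.26 and 0.07. *Slc22a18* and *Phlda2* stayed under 10 in all 5 groups.

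**Figure D2:**
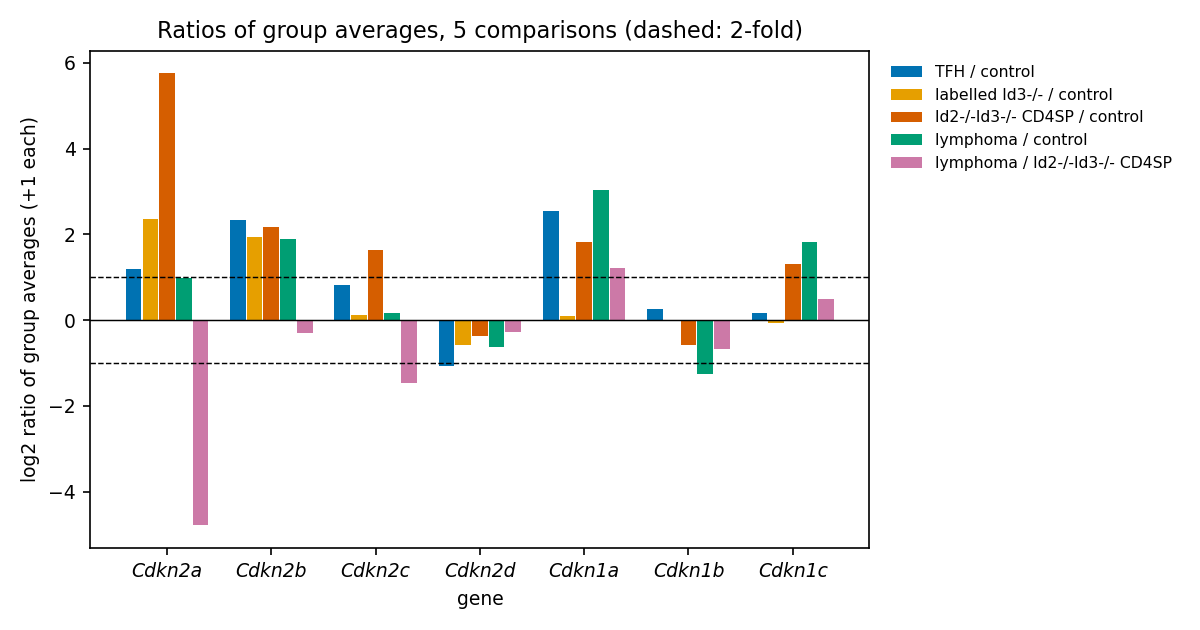
Log2 ratios of group averages (1 normalized count added to each) for the 7 genes, with 1 bar per comparison and dashed lines at 2-fold. The tallest bar is Cdkn2a in Id2-/-Id3-/- CD4SP cells against control (5.76) and the deepest is Cdkn2a in lymphomas against Id2-/-Id3-/- CD4SP cells (-4.78).

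Taking the family as a whole, 5 of 7 members were higher past 2-fold in *Id2*-/-*Id3*-/- CD4SP cells than in control cells (*Cdkn2a*, *Cdkn2b*, *Cdkn2c*, *Cdkn1a* and *Cdkn1c*), and 0 were lower. Of all kept genes 24.2% passed 2-fold in this comparison, 14.1% as higher and 10.1% as lower. The median log2 ratio was 1.63 over the members and 0.02 over the kept genes. *Cdkn2a*, *Cdkn2b* and *Cdkn1a* were under 10 in control cells and entered the kept genes only through other groups, so a difference from control was built into their entry. *Cdkn2c* and *Cdkn1c* were above 10 in all 5 groups. With 10 counts added in place of 1, *Cdkn2b* had a log2 ratio of 0.89 and the count was 4 of 7.

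In the lymphomas 3 members were higher than in control cells (*Cdkn2b*, *Cdkn1a* and *Cdkn1c*) and 1 was lower (*Cdkn1b*), where 35.4% of kept genes passed 2-fold, 18.2% higher and 17.2% lower. *Cdkn2b* and *Cdkn1a*, under 10 in control cells, were kept only through other groups, so a difference from control was built in here too. With the averages scaled to the same sum, 41.9% of the genes past 2-fold were higher, in place of 51.4%. With 10 counts added *Cdkn2b* had a ratio of 0.73 and no longer passed. The median of the members was 0.97, set by *Cdkn2a*, against 0.02. Between lymphomas and *Id2*-/-*Id3*-/- CD4SP cells 2 members were lower (*Cdkn2a* and *Cdkn2c*) and 1 was higher (*Cdkn1a*), where 25.5% of kept genes passed, 14.4% lower and 11.1% higher. The other 4 were within 2-fold and the median was -0.29, against 0.03 over the kept genes. The lymphomas include 2 CD8+ sorts and come from 3 tissues, whereas the *Id2*-/-*Id3*-/- thymocytes are all thymic CD4+ cells. The paper describes the lymphomas in older mice of several Cre lines, and neither age nor Cre line is known for each sequenced one. Sort, tissue, age, Cre line and transformation cannot be told apart in these averages.

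TFH cells had 3 members higher than control (*Cdkn2a*, *Cdkn2b* and *Cdkn1a*) and 1 lower (*Cdkn2d*), where 21.6% of kept genes passed 2-fold, 11.8% higher and 9.8% lower. The libraries labelled *Id3*-/- had 2 higher (*Cdkn2a* and *Cdkn2b*) and 0 lower, where 10% of kept genes passed, 5.57% higher and 4.43% lower. All the members higher in these groups were under 10 in control cells and kept only through other groups. A difference from control was thus built into their entry. In both groups the higher INK4 genes were at 17.3 normalized counts or fewer. With 10 counts added in place of 1, *Cdkn2a* had a log2 ratio of 0.44 and *Cdkn2b* of 0.99 in TFH cells, and *Cdkn2b* had 0.76 in the libraries labelled *Id3*-/-, so these 3 no longer passed. Markers of other cells also differed in TFH cells, as given above, and in the libraries labelled *Id3*-/-. In the latter all 3 kept erythroid markers, 3 of 6 kept myeloid markers, *Blk* and *Epcam* were higher, and *Ebf1* was lower. Of 4 kept NK or gamma-delta T cell markers *Nkg7* and *Tcrg-C1* were higher and *Klrb1c* and *Klrd1* lower, with a sum over the list of 1107 against 327. Their part in these values was not tested.

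Levels of different genes can be compared only per length, and for this each average was divided by the exon length of its gene in kilobases (kb). In control cells *Cdkn2d* had 868 normalized counts per kb and *Cdkn1b* 589, although *Cdkn1b* had more counts. These 2 genes together made up most of the family's level per kb in every group. Summed over the 7 genes, the level was 1576 per kb in control cells, 1338 in TFH cells, 1315 in the libraries labelled *Id3*-/-, 1594 in *Id2*-/-*Id3*-/- CD4SP cells and 1006 in the lymphomas. The sums of control and *Id2*-/-*Id3*-/- CD4SP cells thus lay next to each other, and that of the lymphomas was lowest.

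What differed was the mix. The INK4 genes held 61.5% of the sum in control cells, 44.9% in TFH cells, 54.3% in the libraries labelled *Id3*-/-, 72.3% in *Id2*-/-*Id3*-/- CD4SP cells and 67.9% in the lymphomas. *Cdkn2a* made up 10.3% in *Id2*-/-*Id3*-/- CD4SP cells and 1.12% or less in the other groups. *Cdkn2c* went from 6.21% in control cells to 19.0% in *Id2*-/-*Id3*-/- CD4SP cells and was at 10.9% in the lymphomas. *Cdkn1b* held 37.4% in control cells, 52.6% in TFH cells, 24.8% in *Id2*-/-*Id3*-/- CD4SP cells and 24.6% in the lymphomas. *Cdkn2d* held 55.1% in control cells and 55.8% in the lymphomas, and it also had the largest share in *Id2*-/-*Id3*-/- CD4SP cells, at 42.4%. In TFH cells *Cdkn1b* held the largest share, and in the libraries labelled *Id3*-/- it held 44.4% against 44.5% for *Cdkn2d*, too near to rank.

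**Figure D3:**
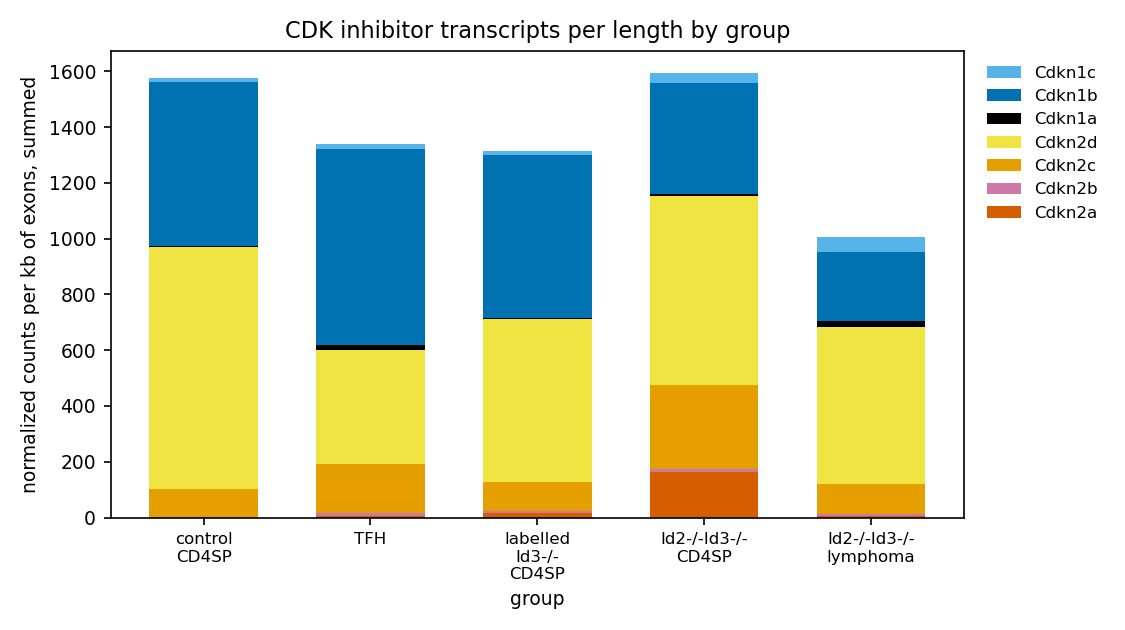
Normalized counts per kb of exons, stacked over the 7 genes, in each of the 5 groups (bars start at 0). The totals are 1576, 1338, 1315, 1594 and 1006 from left to right, and the Cdkn2a block is 10.3% of the Id2-/-Id3-/- CD4SP bar.

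The partners of these inhibitors were read from lists of the pathway. Of 5 genes for CDK4, CDK6 and the D cyclins, which INK4 proteins hold, 0 passed 2-fold between *Id2*-/-*Id3*-/- CD4SP and control cells. In that comparison 24.2% of kept genes passed it. *Cdk4* averaged 4031 against 2849 normalized counts and *Ccnd2* 7477 against 14610, log2 ratios of 0.50 and -0.97. In the lymphomas *Cdk6* was higher, at 525 against 241, and *Ccnd2* lower, at 5781. Of 8 kept genes for CDK1, CDK2, their cyclins and the phosphatase CDC25A, which activates these kinases, 4 were higher and 0 lower in *Id2*-/-*Id3*-/- CD4SP cells, where 14.1% of kept genes were higher. The median log2 ratio was 0.89. They were *Cdk1* at 1.16, *Ccne1* at 1.37, *Ccne2* at 1.37 and *Ccnb1* at 1.29. The lymphomas also had 4 higher and 0 lower, with *Ccnb2* in place of *Ccne2*. There 18.2% of kept genes were higher and 17.2% lower.

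Among 13 genes for retinoblastoma proteins and E2F/DP factors, *E2f2* was higher in *Id2*-/-*Id3*-/- CD4SP cells at 1.26 and 0 were lower. *E2f1*, *E2f2* and *Tfdp1* were higher in the lymphomas, at 1.23, 1.23 and 1.08. *Rb1* itself averaged 1132 normalized counts in control cells, 644 in *Id2*-/-*Id3*-/- CD4SP cells and 354 in the lymphomas, where the log2 ratio was -1.67. In *Id2*-/-*Id3*-/- CD4SP cells 14.1% of all kept genes were higher and 10.1% lower, against 18.2% and 17.2% in the lymphomas. Their median log2 ratio was 0.02 in both. Of 15 proliferation genes 3 were higher in *Id2*-/-*Id3*-/- CD4SP cells (*Mcm6*, *Rrm2* and *Tyms*) and 9 in the lymphomas, with 0 lower in either. Their medians were 0.78 and 1.05, and *Mki67*, a marker of cycling cells, averaged 2179, 3029 and 3935 normalized counts in control cells, *Id2*-/-*Id3*-/- CD4SP cells and lymphomas. Group averages cannot show whether the same libraries or cells held both the inhibitors and the proliferation genes.

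ARF acts on p53 through MDM2. Of 5 genes for p53 and the partners of ARF, 0 passed 2-fold in *Id2*-/-*Id3*-/- CD4SP cells, where 24.2% of kept genes did. *Trp53* averaged 3497 against 3693 normalized counts and *Mdm2* 1355 against 1283. In the lymphomas *Npm1*, which holds ARF in the nucleolus, was higher at 1.46. Of 11 kept p53 target genes other than *Cdkn1a*, 5 were higher in *Id2*-/-*Id3*-/- CD4SP cells and 1 was lower. Over all kept genes 14.1% were higher and 10.1% lower. The median of the list was 0.92, against 0.02 over the kept genes. The higher genes of the list were *Pmaip1* (5.49) and *Bbc3* (1.44), which encode the death proteins NOXA and PUMA, and *Phlda3* (3.10), *Ccng1* (1.35) and *Sesn2* (1.29). *Sesn1* was lower at -1.07. In the lymphomas only *Pmaip1* (5.84) and *Phlda3* (1.11) of this list passed 2-fold against control, where 35.4% of kept genes did. Between lymphomas and *Id2*-/-*Id3*-/- CD4SP cells 10 of the 11 were within 2-fold, and *Phlda3* was lower, at 81.0 against 323 normalized counts. In that comparison 25.5% of kept genes passed 2-fold.

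Against control 14.1% of kept genes were higher and 10.1% lower in *Id2*-/-*Id3*-/- CD4SP cells, and 18.2% and 17.2% in the lymphomas. Of 16 genes for factors known to repress *Cdkn2a*, mainly Polycomb proteins, 0 were higher and 1 was lower in *Id2*-/-*Id3*-/- CD4SP cells. That gene, *Tbx2*, was low throughout, with 9.19 normalized counts in control cells against 2.01 in these thymocytes. *Bmi1* averaged 713 in control cells, 931 in *Id2*-/-*Id3*-/- CD4SP cells and 1112 in the lymphomas, and *Ezh2* averaged 1464, 1411 and 1520. In the lymphomas *Tbx3*, a T-box repressor, averaged 145 against 4.29 in control cells and 6.40 in *Id2*-/-*Id3*-/- CD4SP cells. *Ezh1* was also higher there, at 1.14. Of 7 factors known to activate *Cdkn2a*, 0 were higher in *Id2*-/-*Id3*-/- CD4SP cells and 2 were lower, *Ets2* at -1.13 and the demethylase gene *Kdm6b* at -1.16. *Myc* averaged 1576 in control cells, 3015 in *Id2*-/-*Id3*-/- CD4SP cells and 4326 in the lymphomas, log2 ratios of 0.94 and 1.46. *Jun* was lower in the lymphomas, at -3.52.

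Of 9 factors known to act on transcription of *Cdkn1b*, *Cdkn2b* or *Cdkn1a*, 3 were lower in *Id2*-/-*Id3*-/- CD4SP cells and 0 higher. All 3 were FOXO genes, whose products drive *Cdkn1b* in resting cells. Past 2-fold, 10.1% of all kept genes were lower and 14.1% higher in these thymocytes, against 17.2% and 18.2% in the lymphomas. *Foxo1* averaged 4103 normalized counts in control cells, 843 in *Id2*-/-*Id3*-/- CD4SP cells and 913 in the lymphomas, log2 ratios of -2.28 and -2.17. *Foxo3* had -1.04 and -0.63 and *Foxo4* -1.12 and -0.75. The TGF-beta receptor and SMAD genes stayed within 2-fold in both. Of 10 genes for turnover of CIP/KIP proteins, *Dtl*, a subunit of a ligase that degrades p21, was higher in both groups, at 1.10 and 1.86. *Skp2*, the subunit that recognizes p27, averaged 116, 204 and 222, log2 ratios of 0.81 and 0.93.

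In TFH cells the same lists differed elsewhere. Over all kept genes 11.8% were higher there and 9.8% lower. *Ccnd2* and *Ccnd3* were lower, at -1.27 and -1.06, and *Ccnb1* was the only gene of the CDK1 and CDK2 list that was higher, at 1.13. *Cbx7*, a Polycomb gene known to repress *Cdkn2a*, was higher at 1.33, and its relatives *Cbx2* and *Cbx8* were lower at -1.99 and -1.09. Of the activators of *Cdkn2a*, *Jun* was higher at 2.96 and *Ets2*, *Myc* and *Kdm6b* were lower. *Pmaip1*, at 3.43, was the only p53 target of the list that passed 2-fold, and *Mcm6*, at 1.03, the only proliferation gene. In the libraries labelled *Id3*-/-, 0 genes of the CDK, cyclin, retinoblastoma, E2F, repressor, activator, FOXO, turnover and proliferation lists passed 2-fold. There 10% of all kept genes passed it. Of the p53 targets *Pmaip1* was higher there at 2.90 and *Phlda3* at 1.07.

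E proteins, which Id proteins inhibit, are known to act on several CDK inhibitor genes. None of their 3 genes was higher past 2-fold in the thymocytes or lymphomas labelled *Id2*-/-*Id3*-/-. *Tcf3*, which encodes E2A, averaged 3084 normalized counts in control cells, 1856 in *Id2*-/-*Id3*-/- CD4SP cells and 1869 in the lymphomas, and *Tcf12*, which encodes HEB, averaged 1728, 1792 and 1992. *Tcf4* averaged 252, 42.7 and 27.7. Of the 6 kept genes for E and Id proteins, 3 were lower and 0 higher in *Id2*-/-*Id3*-/- CD4SP cells, among them both targeted genes, and 4 were lower and 0 higher in the lymphomas. The shares of all kept genes that were lower were 10.1% and 17.2%.

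**Figure D4:**
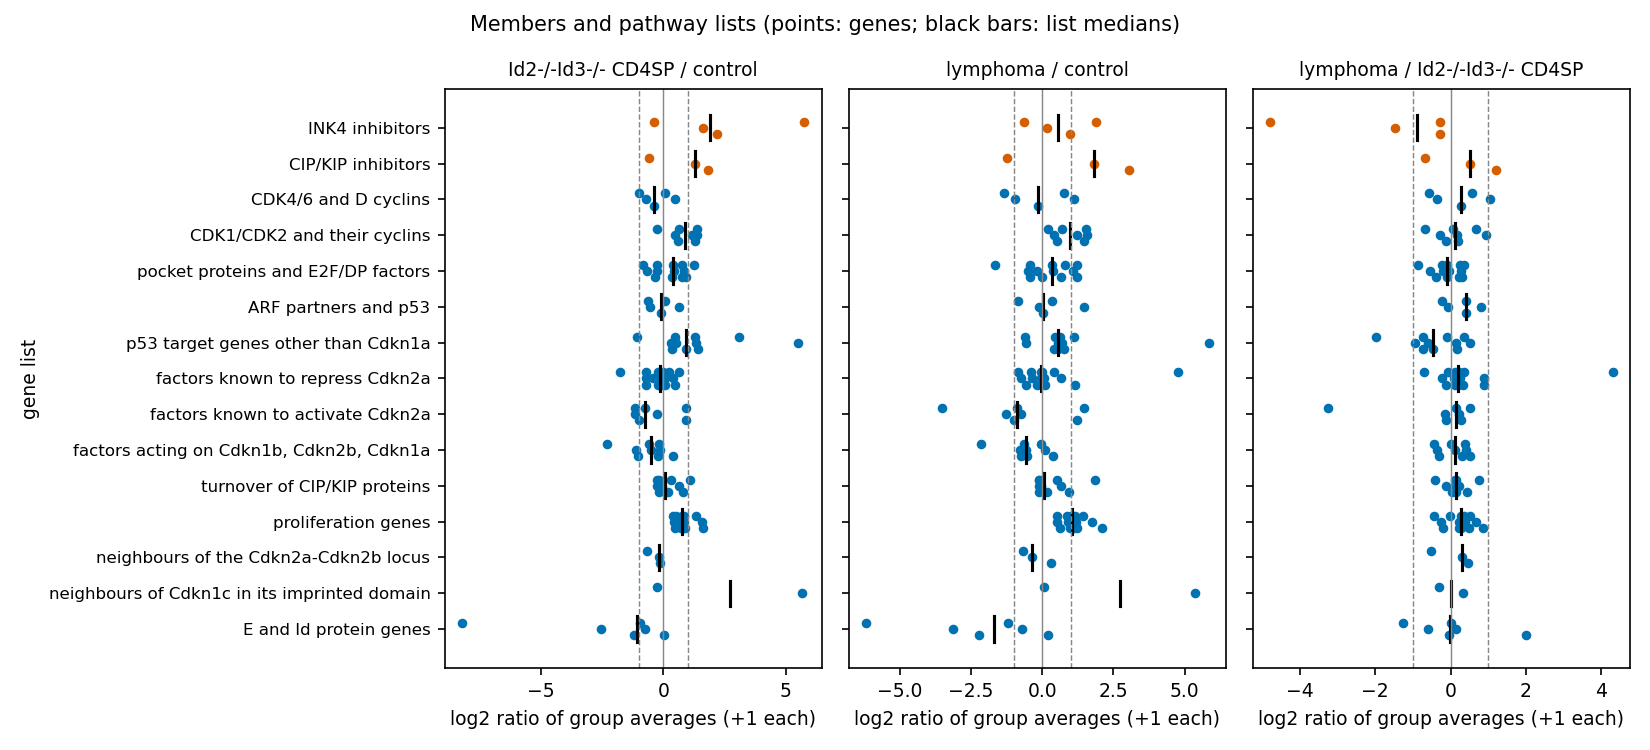
Log2 ratios of group averages for each kept gene of the inhibitor families (orange) and of the pathway lists (blue) in 3 comparisons, with a black bar at each list's median and dashed lines at 2-fold. The INK4 median is 1.90 in Id2-/-Id3-/- CD4SP cells against control, 0.57 in lymphomas against control and -0.88 between the 2 groups, and the x axes differ in range.

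The genes whose 4 log2 ratios to control were most like those of a member were found among 10647 genes with an average of 100 or more in some group. Likeness was measured as the largest of the 4 differences, so the nearer to 0 the closer, over 5 group averages. For *Cdkn2a* the nearest were *Dusp3* at 0.94, *Asns* at 1.13 and *Kirrel3* at 1.35, so that no gene came within 0.9 of its pattern. *Dusp3* averaged 3.68 normalized counts in control cells, 131 in *Id2*-/-*Id3*-/- CD4SP cells and 7.74 in the lymphomas. *Cdkn2c* was followed most closely by *Npepl1* at 0.20, *Cnga1* at 0.27 and *Mcub* at 0.31. *Cdkn2d* was nearest to *Ccnj*, *Tulp3* and *Midn*, at 0.19 to 0.27. *Cdkn1b* was nearest to *H2-K2*, *Slk* and *Nfkb2*, at 0.12 to 0.14, and *Cdkn1c* to *Pabpc4*, *Dennd3* and *Gm4204*, at 0.22 to 0.25. *Cdkn2b* and *Cdkn1a* did not reach an average of 100 in any group and were not matched.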

How the data were processed

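RNA from 20 samples in 5 groups was analysed, with groups taken from the sample labels. The authors mapped strand-specific reads with OSA in Array Studio (mm10), estimated abundance with RSEM and normalized it with DESeq. No source used here gives their versions. In the authors' deposited table there is 1 signal per gene and group, the average of normalized counts. It holds 0 columns of values per library and 12 columns of the authors' own fold changes, p-values and false discovery rates, which were not used. Depth per library is therefore unknown, no interval or test was computed, and replicates were not compared. The group sums ran from 13386015 to 15497262 normalized counts.

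Genes were kept where at least 1 average reached 10. Ratios were taken as log2((average + 1)/(average + 1)) and called past 2-fold. This understates the change of low genes. Symbols matched 37607 of 39179 identifiers. Lengths, positions and exons came from GENCODE M21 (mm10), and upstream sequences from RefSeq (GRCm38.p6) matched 6 of 7 members. Annotated genes on the strand opposite to *Cdkn1a* and *Cdkn1c* were not analysed here, and no source used here says whether counting used strand.

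The members and the pathway and marker lists were chosen with earlier results of these data known. All members were named, along with genes of the lists with the largest or smallest ratio or the best known role, and, for members with an average of 100 or more, the 3 genes with the most similar ratios. Some genes of the lists are not reported here. The ratio and filter steps were checked on simulated averages. Alternatives were other pseudocounts, filters, scalings and thresholds, and, added after seeing the data, the length of the longest transcript. Python 3.11.15, numpy 2.4.6, pandas 2.3.3 and matplotlib 3.10.9 were used.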

Additional observations from a re-analysis of the deposited data

How the results depend on the processing

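No paired analysis was possible because the values used are group averages, and for the same reason no library could be left out. Members past 2-fold numbered 4 in TFH cells, 2 in the libraries labelled *Id3*-/-, 5 in *Id2*-/-*Id3*-/- CD4SP cells and 4 in lymphomas against control, and 3 between the last 2 groups. With 10 counts added they numbered 2 in TFH cells and 1 in the libraries labelled *Id3*-/-. With an average of 100 required they numbered 2, 1, 3 and 2 against control, since members with lower averages drop out. At 4-fold they numbered 2, 1, 2, 1 and 1. All genes past 2-fold numbered 3352, 1554, 3756, 5498 and 3959 in the same order. They numbered 6472, 4480, 7412, 9856 and 9548 with no filter, 1773, 620, 2030, 2909 and 1613 with an average of 100 required, 5662, 3153, 6619, 8494 and 6580 at 1.5-fold and 1287, 422, 1290, 2428 and 1685 at 4-fold. With 10 counts added they were 705 in the libraries labelled *Id3*-/- and 2583 between lymphomas and *Id2*-/-*Id3*-/- CD4SP cells. Scaling to the same sum moved the median of all kept genes in lymphomas against control from 0.02 to -0.18. It kept the order of the 5 averages in 6 of 7 members, and *Cdkn2c* was then 276 in control cells and 268 in lymphomas. Of 140 recomputed ratios of members, that of *Cdkn2c* was the 1 with another sign. With 10 counts added the members past 2-fold numbered 4 in *Id2*-/-*Id3*-/- CD4SP cells and 3 in lymphomas, since *Cdkn2b* no longer passed, and *Cdkn2a* had 4.01 in *Id2*-/-*Id3*-/- CD4SP cells. With 0.1 added *Cdkn2a* passed 2-fold in lymphomas, at 1.19. By the longest transcript the INK4 share ran from 46.9% in TFH cells to 74.3% in *Id2*-/-*Id3*-/- CD4SP cells. Averages near 10 or below rest on few reads, and how few is unknown.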
